A study of Mus musculus and Homo sapiens with 9 samples.

Results

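The genes described here are 10 core genes of the cell cycle engine: the cyclin-dependent kinases CDK1, CDK2, CDK4 and CDK6, and the cyclins CCND1, CCND2, CCND3, CCNE1, CCNE2 and CCNA2. They were taken by gene symbol from the deposited count tables, where all 10 were found among the 64252 rows of the human table and all 10 mouse genes among the 43432 rows of the mouse table. The study asked what loss of IRF2BP2, a transcriptional cofactor, does in T-ALL, an acute leukemia of T-cell precursors, and in normal T cells. The human libraries are from J.gamma1, a Jurkat-derived T-ALL line that lacks phospholipase C gamma 1, and 2 of them carried a non-targeting short hairpin (sh-NC) and 2 a hairpin that knocks down IRF2BP2 (sh-IRF2BP2). Mouse CD3+ T cells, magnetically sorted from spleen, gave 2 libraries from Irf2bp2 knockout animals (Vav-iCre+/-;Irf2bp2fl/fl) and 3 from controls. Both groups of mice carry floxed Irf2bp2 alleles by the study's methods (Vav-iCre-/-;Irf2bp2fl/fl in the controls), whereas the labels call the controls wild type. Vav-iCre is a Cre recombinase active in all blood lineages, so the deletion was not limited to T cells. Mice of this cross were sacrificed at 6 weeks of age, an age not tied to the sequenced animals by name, and which hairpin the sequenced J.gamma1 cells carried is not given in the sources used here.

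Cyclins are the activating subunits of cyclin-dependent kinases (CDKs), and each stage of the cell cycle has its own pair. D cyclins with CDK4 or CDK6 respond to growth signals in G1 and phosphorylate the retinoblastoma protein RB1, which frees E2F transcription factors. E cyclins with CDK2 drive entry into S phase, cyclin A2 serves with CDK2 in S phase and with CDK1 in G2, and CDK1 is the kinase of mitosis. In T cells CDK6 and cyclins D2 and D3 are the usual G1 partners, and transcription of E cyclins, cyclin A2 and CDK1 is turned on by E2F and rises in dividing cells.

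Total counts per library were 26648204 to 31120236 in J.gamma1 cells and 16668577 to 37177523 in mouse T cells, where control replicate 3 was the shallowest. IRF2BP2 lay at 204 and 199 CPM (counts scaled to a common library size) under sh-NC and at 79.0 and 93.8 CPM under sh-IRF2BP2, with a log2 fold change of -1.22 (edgeR adjusted p = 0.00229). Mouse Irf2bp2 had 4145, 4594 and 1915 counts in the controls and 0 and 0 in the knockout. The 18 T cell markers summed to 2505 to 2777 CPM over the J.gamma1 libraries and to 7549 to 11560 CPM over the mouse libraries, and none of them was at 0 throughout. Each comparison was fitted on its own with edgeR's quasi-likelihood test over all genes kept by its filter on low counts, 15819 in J.gamma1 cells and 15350 in mouse T cells. A gene was said to rise or fall when its p, adjusted by Benjamini-Hochberg over all those genes, was under 0.05. The labels do not say whether libraries of 1 group came from separate cultures or animals, so the p-values measure the spread between these libraries, which may be technical. In bulk RNA, fewer cycling cells and less RNA per cycling cell cannot be told apart.

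The promoters of CDK1 and CDK6 are shown because these kinases moved in opposite directions in J.gamma1 cells, and that of mouse Cdk1 because its log2 fold change had the opposite sign in mouse T cells. Each window runs from 250 bases before to 50 bases after the start site and reads 5′ to 3′ along the gene. The human windows were read from hg38 at the canonical start site of GENCODE 44, at chr10:60778228-60778527 on the plus strand for CDK1 and at chr7:92836524-92836823 on the minus strand for CDK6. The mouse window is RefSeq's, at chr10:69352863-69353162 of GRCm38.p6 on the minus strand. Capitals mark matches, on either strand, to motif words of the E2F site, the cell cycle homology region (CHR) and the CCAAT box.
CDK1: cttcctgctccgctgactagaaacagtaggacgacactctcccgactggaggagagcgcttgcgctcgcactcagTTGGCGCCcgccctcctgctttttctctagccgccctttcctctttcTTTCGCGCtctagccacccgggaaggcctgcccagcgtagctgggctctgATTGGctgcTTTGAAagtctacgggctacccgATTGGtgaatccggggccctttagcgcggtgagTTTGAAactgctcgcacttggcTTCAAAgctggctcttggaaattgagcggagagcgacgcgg
Cdk1: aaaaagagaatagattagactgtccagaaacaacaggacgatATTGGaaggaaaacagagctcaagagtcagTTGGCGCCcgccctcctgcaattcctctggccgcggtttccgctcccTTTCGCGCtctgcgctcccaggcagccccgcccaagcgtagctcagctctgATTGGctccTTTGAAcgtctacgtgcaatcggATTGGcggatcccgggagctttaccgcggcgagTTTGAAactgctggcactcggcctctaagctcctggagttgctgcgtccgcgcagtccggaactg
CDK6: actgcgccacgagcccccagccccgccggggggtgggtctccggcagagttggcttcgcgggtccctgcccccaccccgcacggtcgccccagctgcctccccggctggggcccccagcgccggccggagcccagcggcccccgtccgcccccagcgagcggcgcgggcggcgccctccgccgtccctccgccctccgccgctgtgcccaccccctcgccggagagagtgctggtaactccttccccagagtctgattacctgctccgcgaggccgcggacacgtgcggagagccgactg

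The E2F words searched were TTTCGCGC, TTTGGCGC, TTTCCCGC, TTTGCCGC, TTCCCGCC, TTGGCGCC and TTCGCGCC, some of which overlap each other, the CHR words were TTTGAA and TTCGAA, and CCAAT was searched as it stands, all on both strands. The human CDK1 window holds E2F words at -175 and -128 from the start site and CHR words at -69, -13 and 10. The mouse Cdk1 window holds the same E2F words at -178 and -131 and CHR words at -71 and -15. The CDK6 window holds none of these words, and neither do those of CDK4 and CCNE1 or of mouse Cdk4, Cdk6 and Ccne1. The window of CCND1, a gene at or near 0 counts in J.gamma1 cells, holds overlapping E2F words at -147 and -146. That of mouse Cdk2 holds an E2F word at -140. Over 20046 human promoter windows of this length, 9.23% held an E2F word, 12.8% a CHR word and 36.1% a CCAAT word. Over 32851 mouse windows the shares were 4.8%, 19.2% and 37.4%. A match describes letters in the window and is not evidence of a bound factor. The lack of a match covers only these exact words in this window and is not evidence that a gene lacks such a site. CCNA2, which carries a CCAAT word at -56, also holds the cAMP response element word TGACGTCA at -81, a word found in 2.69% of human windows. Of the 10 mouse genes, 6 matched the mouse promoter table.

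Knockdown of IRF2BP2 in J.gamma1 cells was compared with sh-NC to ask how the cycle genes respond in leukemic cells. CDK1 and CCNE2 fell to about the same extent, by 1.02 and 1.03 on the log2 scale, and CDK6 rose by 0.96. Thus 1 of the 9 members tested rose and 2 fell, whereas over all genes tested 5.83% rose and 5.32% fell. The other 6 tested members had negative log2 fold changes between -0.39 and -0.18 that did not pass the test. The median of the 9 was -0.285, and that of all genes was 0.00667.

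**Figure D1:**
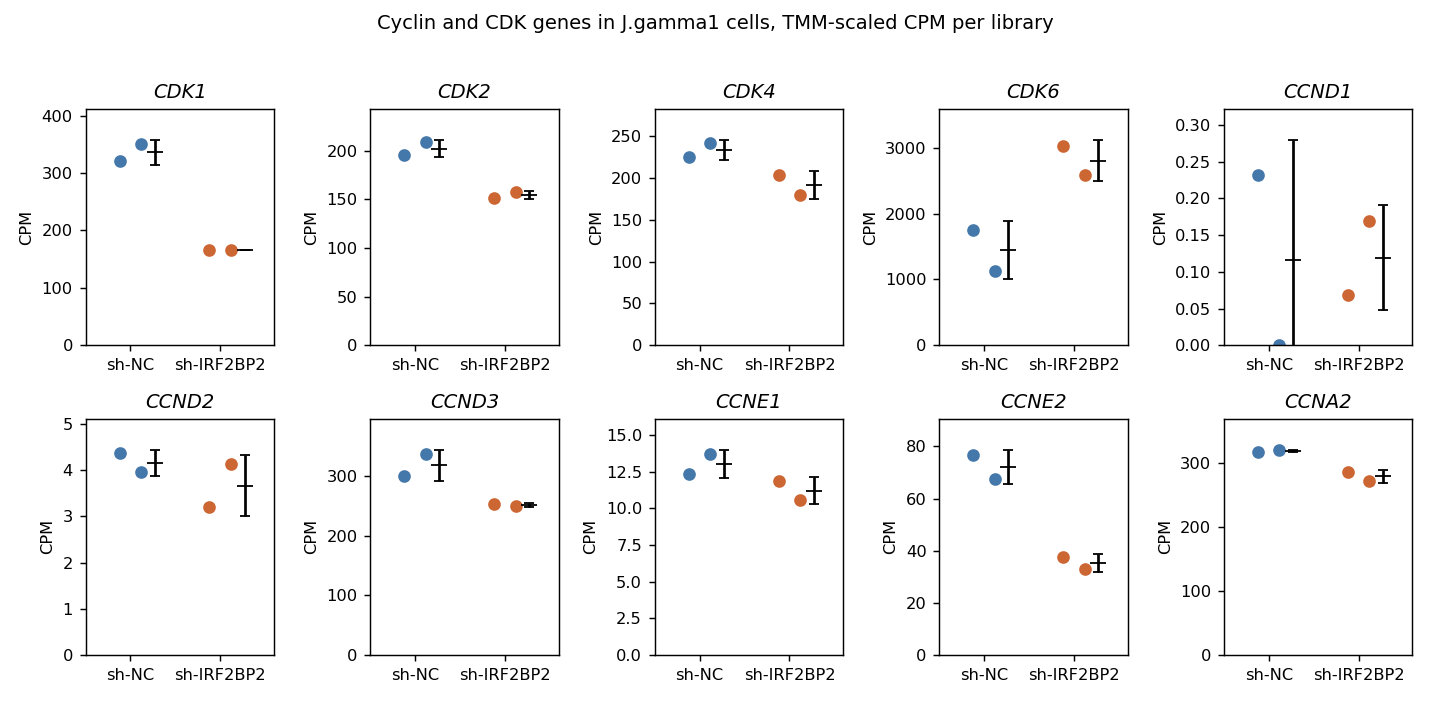
Level of each gene in every J.gamma1 library, as CPM on a linear axis from 0 with its own scale per gene, with points for libraries and black bars for the group mean and SD; CCND1 is at or near 0 counts. CDK1 and CCNE2 sit lower and CDK6 higher in both sh-IRF2BP2 libraries than in both sh-NC libraries, and the groups overlap for CCND2.

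Among the G1 genes, CDK6 (ENSG00000105810, chromosome 7 of hg38, 92604921 to 92836573, minus strand) is a kinase partner of D cyclins. It lay at 1753 and 1133 CPM with sh-NC and at 3029 and 2585 CPM with sh-IRF2BP2. Both knockdown libraries were above both controls, and the controls spread widely. The means were 1443 ± 438 CPM and 2807 ± 314 CPM (SD, n = 2 each), with a log2 fold change of 0.96 (standard error 0.219, 95% interval 0.45 to 1.47, edgeR adjusted p = 0.0321). The call was lost without sh-IRF2BP2 replicate 1 (0.82, edgeR adjusted p = 0.0925) and when every gene with at least 1 count in any library was kept (edgeR adjusted p = 0.0924).

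CDK4, the other D-cyclin kinase, lay at 224.8 and 242.0 CPM in sh-NC and at 203.3 and 179.8 CPM in sh-IRF2BP2. Its groups did not overlap, but its log2 fold change of -0.29 (95% interval -0.58 to 0.01, edgeR adjusted p = 0.189) did not pass. The antisense gene TSPAN31, which covers 44.2% of the exonic bases of CDK4, had a mean of 1.83 CPM. CCND3, the only D cyclin with a substantial level in these cells, measured 299.9 and 336.7 CPM against 253.4 and 249.4 CPM. Here too the groups stood apart, and the log2 fold change was -0.34 (95% interval -0.63 to -0.05, edgeR adjusted p = 0.122). CCND3 was called in 1 of 14 alternatives, the fit without sh-NC replicate 1, and in the other 13 it kept its sign and was not called. With 1 library left out its log2 fold change lay between -0.43 and -0.26.

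CCND2 was low and its groups overlapped, at 4.36 and 3.96 CPM in sh-NC and 3.19 and 4.14 CPM in sh-IRF2BP2 (log2 fold change -0.18, 95% interval -0.83 to 0.47, edgeR adjusted p = 0.72). CCND1, cyclin D1, had 6 and 0 counts in sh-NC and 2 and 5 counts in sh-IRF2BP2. The limit that a count of 0 allows, 3 counts, is 0.0967 to 0.116 CPM in these libraries and covers counting error only. CCND1 therefore stood at or near that limit in every library, did not pass the filter on low counts, and a difference was not detectable at this depth. Reads from LTO1, an antisense neighbor that shares 10.4% of the exonic bases of CCND1, cannot be told apart from CCND1 reads unless strand was used, which is not stated.

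CCNE2, cyclin E2 (ENSG00000175305), lay at 76.9 and 67.6 CPM in sh-NC and at 37.6 and 32.9 CPM in sh-IRF2BP2. Both knockdown libraries were below both controls, with means of 72.2 ± 6.57 CPM and 35.3 ± 3.30 CPM (SD, n = 2 each). The log2 fold change was -1.03 (standard error 0.134, 95% interval -1.34 to -0.72, edgeR adjusted p = 0.00413), and it remained past the test without any 1 library, at -1.16 to -0.94. The exons of INTS8, a gene on the opposite strand, cover 37% of the exonic bases of CCNE2. INTS8 had a mean of 101 CPM, above that of CCNE2, and a log2 fold change of 0.09 (edgeR adjusted p = 0.661). Reads from the shared bases cannot be told apart unless strand was used, which is not stated.

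CCNE1, cyclin E1, is the paralog of CCNE2, and it lay at 12.4 and 13.7 CPM in sh-NC and at 11.8 and 10.6 CPM in sh-IRF2BP2. The groups did not overlap, and the log2 fold change was -0.22 (95% interval -0.65 to 0.21, edgeR adjusted p = 0.49). CDK2, the kinase of both E cyclins, went from 195.6 and 208.3 CPM to 151.6 and 157.2 CPM. Its groups were well apart, with a log2 fold change of -0.39 (standard error 0.117, 95% interval -0.66 to -0.12, edgeR adjusted p = 0.0732). CDK2 was called in 4 of 14 alternatives, among them DESeq2 (adjusted p = 0.0218) and upper-quartile scaling in edgeR (adjusted p = 0.0485). In the other 10 it kept its sign and was not called. With 1 library left out its log2 fold change lay between -0.44 and -0.34.

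CDK1, the mitotic kinase (ENSG00000170312, chromosome 10 of hg38, 60778331 to 60794852, plus strand), lay at 320.5 and 351.2 CPM in sh-NC and at 165.4 and 165.9 CPM in sh-IRF2BP2. The knockdown libraries were nearly equal and far below the controls, with means of 336 ± 21.7 CPM and 166 ± 0.340 CPM (SD, n = 2 each). The log2 fold change was -1.02 (standard error 0.121, 95% interval -1.30 to -0.74, edgeR adjusted p = 0.00301), and without any 1 library it lay between -1.09 and -0.95 and passed each time. CCNA2, cyclin A2, which binds CDK1 and CDK2, lay at 317.9 and 321.1 CPM in sh-NC and at 287.1 and 272.9 CPM in sh-IRF2BP2. Its groups did not overlap, yet its log2 fold change of -0.19 (95% interval -0.46 to 0.08, edgeR adjusted p = 0.341) was smaller in size than that of CDK1 and did not pass. Its antisense neighbor EXOSC9, with a mean of 141 CPM, shares 9.24% of its exonic bases and fell by 0.58 on the log2 scale (edgeR adjusted p = 0.0199).

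Of the 9 tested members, 7 were lower and 1 higher with no overlap between the 2 libraries of each group, while 28.7% and 29.6% of all genes tested did so. The proliferation markers MKI67 and TOP2A did not pass the test. MKI67 lay at 871 and 620 CPM in sh-NC and 863 and 873 CPM in sh-IRF2BP2 (log2 fold change 0.22, edgeR adjusted p = 0.463), though without sh-NC replicate 1 it passed (0.48, edgeR adjusted p = 0.0195) and without sh-NC replicate 2 its sign turned (-0.0063). TOP2A lay at 1004 and 951 CPM against 836 and 895 CPM (log2 fold change -0.18, edgeR adjusted p = 0.434). Of the 18 T cell markers 4 rose and 4 fell, and their sums overlapped, at 2505 to 2777 against 2636 to 2724 CPM. Of the other lineages' lists, the myeloid markers, with MPO, CSF1R, S100A8 and ELANE at 0, summed to 0.4634 to 0.8058 CPM in sh-NC and 1.357 to 1.408 CPM in sh-IRF2BP2. The erythroid markers, of which RHAG and ALAS2 were at 0, summed to 18.34 to 20.78 and 14.53 to 16.35 CPM, and 1 of them fell, HEMGN (log2 fold change -1.77, edgeR adjusted p = 0.013). The megakaryocyte and platelet markers, with GP9, PF4 and PPBP at 0, summed to 3.167 to 5.576 and 2.576 to 6.004 CPM. The B cell markers, with MS4A1 at 0, summed to 66.93 to 83.32 CPM in sh-NC and 33.49 to 36.06 CPM in sh-IRF2BP2. Of the 5 tested, 1 fell, CD79A (log2 fold change -2.07, edgeR adjusted p = 0.00145), and 0 rose. The plasma cell markers, with TNFRSF17 at 0, summed to 134.6 to 150.5 and 83.21 to 86.07 CPM. Of the 4 tested, MZB1 fell (-1.18, edgeR adjusted p = 0.00419) and PRDM1 rose (1.38, edgeR adjusted p = 0.0242). Of the NK cell list NCR1 was at 0, and EOMES, a factor that activated T cells also use, rose from 11.82 and 11.28 CPM to 111.5 and 118.5 CPM (log2 fold change 3.32, edgeR adjusted p = 0.000101). Their part in the cyclin and CDK results was not tested.

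Levels were compared between genes as CPM per kilobase of exon, since longer genes collect more reads, and the order of the upper genes depends on the gene length used. By the union of all annotated exons the order was as follows. In sh-NC cells CDK6 stood at 118 ± 35.8 CPM per kilobase (SD, n = 2) and CCNA2 at 116 ± 0.824, and their ranges overlapped. CDK1 (85.9), CDK4 (75.4), CCND3 (55.3) and CDK2 (52.0) followed, of which CCND3 and CDK2 overlapped. CCNE2 (16.4) and CCNE1 (5.30) were lower, and CCND2 (0.521) and CCND1 (0.0243) were near the bottom. In sh-IRF2BP2 cells CDK6 was at 229, CCNA2 at 102, CDK4 at 61.9, CCND3 at 43.6 and CDK1 at 42.4. By the longest protein-coding transcript CDK1 led in sh-NC (172). CCND3 (133), CDK4 (125), CDK6 (124) and CCNA2 (116) followed in this order, each overlapping its neighbor among them. By the mean length of protein-coding transcripts CDK4 led in sh-NC (272), with CCND3 (222) and CDK1 (212) overlapping. CDK6 was the first gene in sh-IRF2BP2 by all of these lengths, at 229, 241 and 241 CPM per kilobase, and by the mean transcript length it overlapped CDK4 (223). CCNE2, CCNE1, CCND2 and CCND1 were the lowest genes, in this order, by each length and in both groups.

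Within families, CCND3 made up 99% of the D-cyclin level per kilobase in sh-NC and 98.9% in sh-IRF2BP2. CDK6 made up 54.2% to 66.3% of CDK4 and CDK6 together in the sh-NC libraries and 78.4% to 79% in the sh-IRF2BP2 libraries. CCNE1 made up 22.3% to 26.6% of the E-cyclin level in sh-NC and 36% to 36.5% in sh-IRF2BP2. Neither share overlapped between groups. These shares are a description without a test, since 2 libraries against 2 cannot reach an exact two-sided p under 0.333. The share of CDK6 also depends on the gene length used: with the mean length of protein-coding transcripts it was 31.1% in sh-NC and 51.9% in sh-IRF2BP2.

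**Figure D2:**
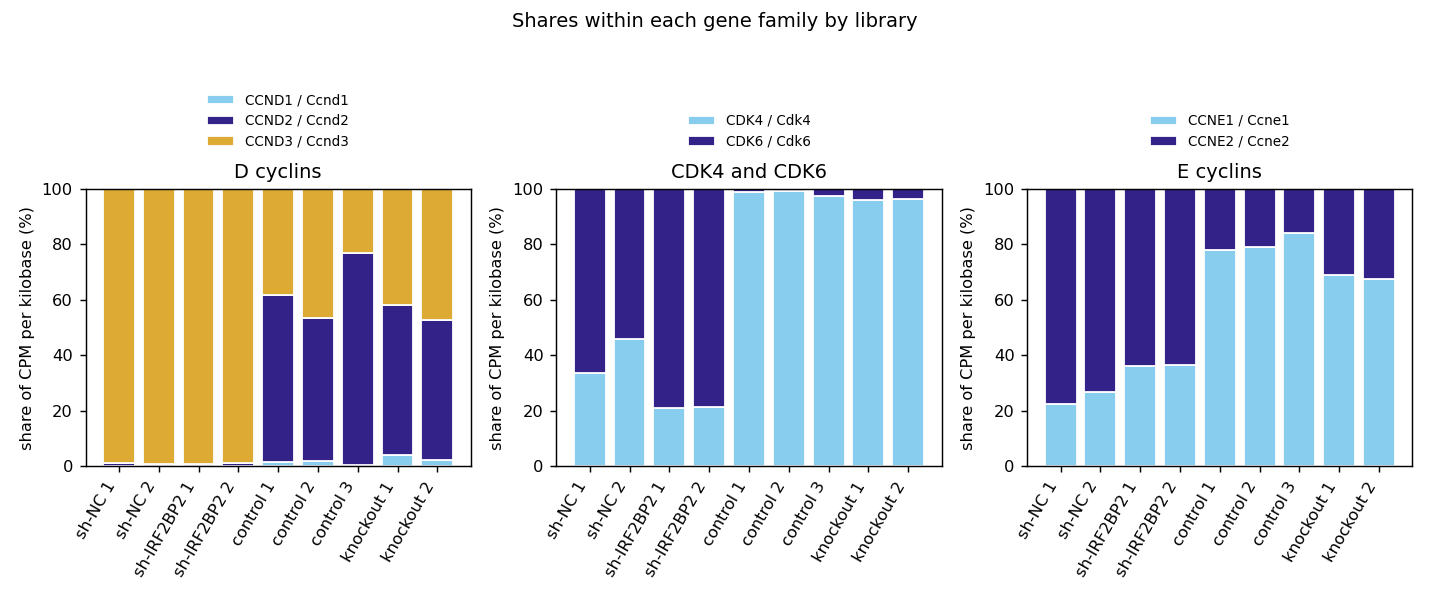
Share of each paralog in the summed level per kilobase of its family, in percent, for D cyclins, the pair CDK4 and CDK6, and E cyclins, with 1 bar for each library of both tables. CCND3 fills the D-cyclin bar in J.gamma1 cells, whereas Ccnd2 and Ccnd3 share it in mouse T cells.

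The other cyclins, the other CDKs and the regulators of CDKs were read from the same fit. Of 20 other cyclins, all tested, 1 rose and 0 fell, 3 being lower at an unadjusted p under 0.05 in edgeR and 0 by DESeq2, and their median log2 fold change was 0.236. The gene that rose was CCNJ, from 37.9 ± 3.29 to 56.2 ± 5.51 CPM (SD, n = 2 per group, with a log2 fold change of 0.57, edgeR adjusted p = 0.0363). The mitotic cyclins CCNB1 (-0.01, edgeR adjusted p = 0.973) and CCNB2 (-0.34, edgeR adjusted p = 0.142), partners of CDK1, did not pass. Of 17 other CDKs, 16 were tested, 1 fell and 0 rose, 1 being higher at an unadjusted p under 0.05 in edgeR and 0 by DESeq2. It was CDK19, a kinase of the Mediator complex, from 51.0 ± 3.13 to 33.0 ± 4.998 CPM (SD, n = 2 per group, with a log2 fold change of -0.63, edgeR adjusted p = 0.0339).

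Of 24 CDK regulators (phosphatases, inhibitors, inhibitory kinases and RB family proteins), 22 were tested, 2 rose and 2 fell, and the median log2 fold change was -0.153. CDKN1B, which encodes the CDK inhibitor p27, rose from 141 ± 19.8 to 282 ± 43.9 CPM (SD, n = 2 per group, with a log2 fold change of 1.00, edgeR adjusted p = 0.00887). CDC25B, a phosphatase that activates CDK1, rose from 153 ± 17.7 to 216 ± 5.76 CPM (log2 fold change 0.50, edgeR adjusted p = 0.0468). RB1, the substrate of CDK4 and CDK6, fell from 436 ± 55.4 to 226 ± 3.49 CPM (log2 fold change -0.95, edgeR adjusted p = 0.00587). WEE1, the kinase that holds CDK1 inactive, fell from 143 ± 9.06 to 99.2 ± 0.220 CPM (log2 fold change -0.52, edgeR adjusted p = 0.0292). The calls on CDKN1B and RB1 held without any 1 library. Those on CCNJ, CDK19, CDC25B and WEE1 were each lost without sh-IRF2BP2 replicate 1, with edgeR adjusted p-values of 0.255, 0.193, 0.197 and 0.151, and those on CCNJ, CDC25B and WEE1 also without sh-IRF2BP2 replicate 2, at 0.0534, 0.21 and 0.151. CDC25B was lost in 8 of 14 alternatives, among them without sh-NC replicate 1 (edgeR adjusted p = 0.0559), with upper-quartile scaling (0.0676) and with all rows (0.0524). Keeping every gene with at least 1 count in any library ended all 4 calls, with edgeR adjusted p-values of 0.108, 0.0816, 0.127 and 0.0615 for CCNJ, CDK19, CDC25B and WEE1.

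In mouse T cells the knockout was compared with the control to ask how the same genes stand in normal T cells without Irf2bp2. Ccne1, Ccne2 and Ccna2 rose in the knockout, by 1.55, 2.44 and 2.25 on the log2 scale, and no member fell. Thus 3 of the 10 members rose, whereas over all genes tested 2.68% rose and 0.15% fell. The count of 0 for a fall was also 0 at an unadjusted p under 0.05 and by DESeq2. The median over the 10 members was 1.42, and over all genes it was -0.0178. Each of the 3 calls was lost without control replicate 1 and without either knockout library, while their log2 fold changes lay between 1.33 and 2.75 with any 1 library left out.

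**Figure D3:**
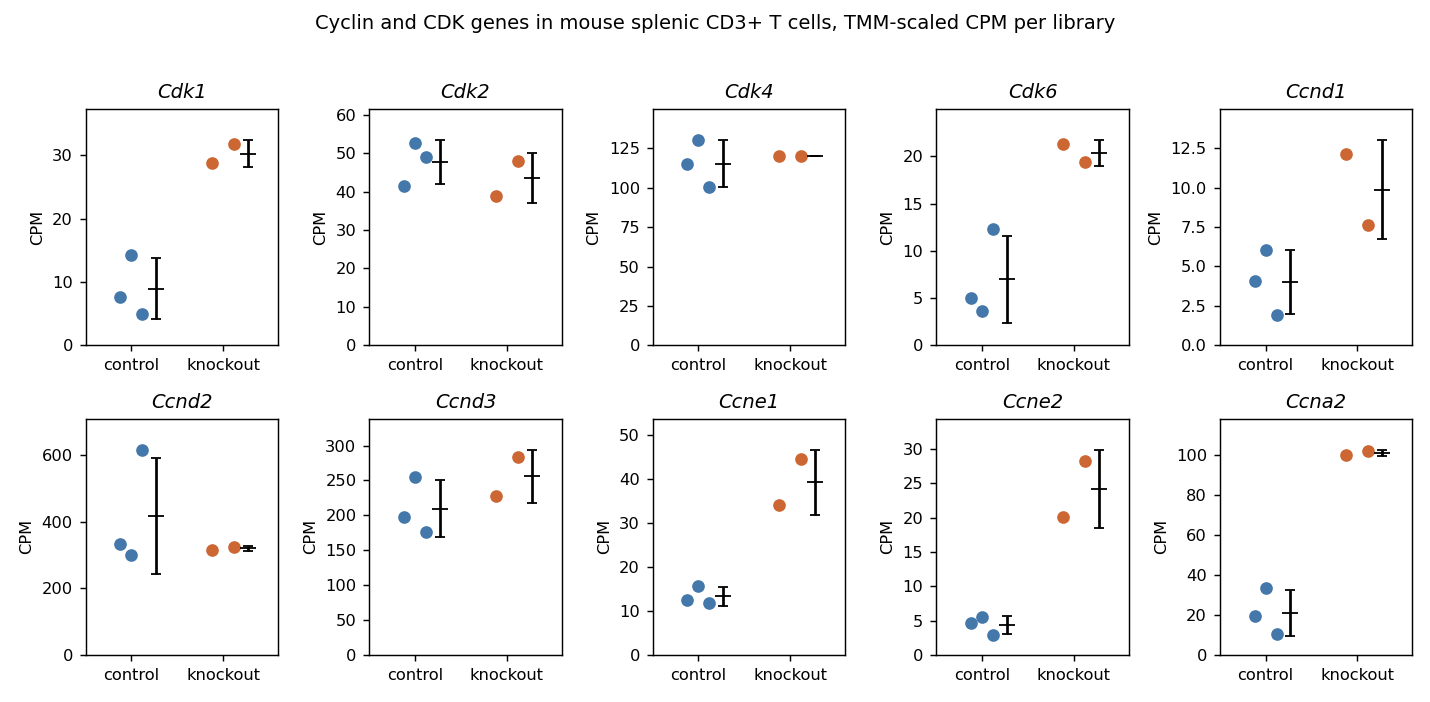
Level of each gene in every mouse T cell library, as CPM on a linear axis from 0 with its own scale per gene, with points for libraries and black bars for the group mean and SD. Both knockout libraries lie above all 3 controls for Cdk1, Cdk6, Ccnd1, Ccne1, Ccne2 and Ccna2, and the groups overlap for the other genes.

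Among the marker lists of other cell types, only the erythroid sums did not overlap between the groups. All 17 erythroid markers found in the table (of 18) had a positive log2 fold change in the knockout, 10 of them rose and 0 fell, and their summed level was 620.7 to 2304 CPM in the controls and 4892 to 6803 CPM in the knockout, led by the globin genes Hba-a1, Hba-a2 and Hbb-bs. None of the 17 was at 0 in every library. All 8 plasma cell markers had a positive log2 fold change and 1 rose. Their sums overlapped, at 435.1 to 1183 CPM in the controls and 1173 to 1546 CPM in the knockout. Of the 18 T cell markers 17 had a negative log2 fold change, with sums of 9465 to 11560 CPM in the controls and 7549 to 7892 CPM in the knockout. The 1 that fell was Cd8b1 (log2 fold change -0.94, edgeR adjusted p = 0.0211). Cd8a (-0.60, edgeR adjusted p = 0.0676) and Cd4 (-0.07, edgeR adjusted p = 0.872) did not pass. The B cell (30.16 to 259.2 against 30.08 to 113.3 CPM), myeloid (38.85 to 405 against 90.18 to 145.8 CPM), platelet (6.945 to 15.13 against 10.79 to 14.07 CPM) and NK cell markers (62.35 to 82.25 against 54.54 to 69.82 CPM) overlapped in their sums. The part of these cells in the rise of the cyclins was not tested. The proliferation marker Mki67 lay at 68.4, 78.1 and 45.9 CPM in the controls and at 409 and 475 CPM in the knockout (log2 fold change 2.78, edgeR adjusted p = 0.00717). Top2a lay at 58.2, 72.8 and 39.4 CPM against 213 and 213 CPM (log2 fold change 1.91, edgeR adjusted p = 0.0147). The call on Mki67 was lost without control replicate 1 (edgeR adjusted p = 0.0564) or knockout replicate 2 (0.0637), and that on Top2a without control replicate 1 (0.0919), knockout replicate 1 (0.0803) or knockout replicate 2 (0.109).

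Ccne2 (ENSMUSG00000028212), cyclin E2, lay at 4.70, 5.56 and 2.94 CPM in the controls and at 20.2 and 28.2 CPM in the knockout. Both knockout libraries were far above every control, with means of 4.40 ± 1.33 CPM (SD, n = 3) and 24.2 ± 5.72 CPM (SD, n = 2). The log2 fold change was 2.44 (standard error 0.310, 95% interval 1.70 to 3.18, edgeR adjusted p = 0.0146). Its antisense neighbor Ints8 shares 17.4% of its exonic bases and had a log2 fold change of 0.24 (edgeR adjusted p = 0.466). Ints8 had a mean of 60.9 CPM, above that of Ccne2, and reads from the shared bases cannot be told apart unless strand was used. Left without control replicate 1, knockout replicate 1 or knockout replicate 2, Ccne2 had edgeR adjusted p-values of 0.0858, 0.0651 and 0.149.

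Ccne1 (ENSMUSG00000002068), cyclin E1, lay at 12.5, 15.8 and 11.8 CPM in the controls and at 34.0 and 44.6 CPM in the knockout. The knockout libraries again stood above every control, with means of 13.4 ± 2.14 CPM (SD, n = 3) and 39.3 ± 7.45 CPM (SD, n = 2), and the log2 fold change was 1.55 (standard error 0.202, 95% interval 1.07 to 2.04, edgeR adjusted p = 0.0156). Without the same libraries its edgeR adjusted p-values were 0.0925, 0.0694 and 0.184. Cdk2, the kinase of the E cyclins, lay at 41.5, 52.7 and 49.1 CPM in the controls and at 39.0 and 48.1 CPM in the knockout. Its groups overlapped, with a log2 fold change of -0.13 (95% interval -0.53 to 0.26, edgeR adjusted p = 0.763).

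Ccna2 (ENSMUSG00000027715), cyclin A2, lay at 19.4, 33.5 and 10.6 CPM in the controls and at 99.97 and 102.4 CPM in the knockout. The controls spread widely and the knockout libraries were nearly equal and above all of them, with means of 21.2 ± 11.6 CPM (SD, n = 3) and 101 ± 1.72 CPM (SD, n = 2). The log2 fold change was 2.25 (standard error 0.411, 95% interval 1.26 to 3.23, edgeR adjusted p = 0.043), and without the libraries named above the edgeR adjusted p-values were 0.188, 0.181 and 0.211. The antisense neighbor Exosc9, with a mean of 28.6 CPM, shares 12.5% of the exonic bases of Ccna2. Exosc9 had a log2 fold change of 0.02 (edgeR adjusted p = 0.96), and reads from the shared bases cannot be told apart unless strand was used. Cdk1 had the same order of libraries as Ccna2 in the controls and in the knockout, at 7.64, 14.3 and 4.94 CPM and at 28.7 and 31.8 CPM. Its groups did not overlap, and its log2 fold change of 1.74 (standard error 0.404, 95% interval 0.78 to 2.71, edgeR adjusted p = 0.0851) did not pass. Cdk1 was called in 3 of 16 alternatives, among them DESeq2 (adjusted p = 0.00109) and edgeR without control replicate 2 (2.26, edgeR adjusted p = 0.00824). In the other 13 it kept its sign and was not called. With 1 library left out its log2 fold change lay between 1.46 and 2.26.

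Cdk6 lay at 5.05, 3.596 and 12.3 CPM in the controls and at 21.3 and 19.4 CPM in the knockout. Control replicate 3 was the highest control, and the knockout libraries were above all of them. The log2 fold change was 1.57 (standard error 0.489, 95% interval 0.40 to 2.74, edgeR adjusted p = 0.184). Cdk6 was called in 3 of 16 alternatives, among them without control replicate 3 (2.23, edgeR adjusted p = 0.0162) and by DESeq2 (adjusted p = 0.0262). In the other 13 it kept its sign and was not called. With 1 library left out its log2 fold change lay between 1.28 and 2.23. Cdk4, its paralog, lay at 115, 130 and 100 CPM in the controls and at 120.0 and 120.1 CPM in the knockout. Its groups overlapped, and its log2 fold change of 0.06 (95% interval -0.29 to 0.40, edgeR adjusted p = 0.895) had the other sign without control replicate 3 (-0.04).

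Of the D cyclins none passed. Ccnd2 lay at 333, 301 and 617 CPM in the controls and at 315 and 325 CPM in the knockout, so that control replicate 3 stood apart from the rest. The log2 fold change was -0.38 (95% interval -1.13 to 0.37, edgeR adjusted p = 0.631) and turned to 0.0096 without that library. Ccnd3 lay at 198, 255 and 176 CPM in the controls and at 228 and 283 CPM in the knockout, with overlap and a log2 fold change of 0.29 (95% interval -0.18 to 0.75, edgeR adjusted p = 0.546). Ccnd1 lay at 4.05, 6.06 and 1.94 CPM in the controls and at 12.1 and 7.66 CPM in the knockout. The groups of Ccnd1 did not overlap, and its log2 fold change was 1.28 (95% interval 0.16 to 2.41, edgeR adjusted p = 0.249). Its antisense neighbor LTO1, with a mean of 23.2 CPM, covers 23.4% of its exonic bases.

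In all, 6 of the 10 mouse members were higher in both knockout libraries than in every control, and 0 were lower, while 18.2% and 17.8% of all genes tested did so. Per kilobase of the union of exons, Ccnd2 (44.3 ± 18.5 CPM per kilobase, SD, n = 3), Cdk4 (35.5) and Ccnd3 (23.9) were the top genes of control T cells, and Ccnd2 and Cdk4 overlapped. Cdk2 (7.68), Ccna2 (5.18) and Ccne1 (5.02) followed with overlapping ranges, and Cdk1 (1.82), Ccne2 (1.26), Ccnd1 (0.853) and Cdk6 (0.498) were lowest, each overlapping its neighbor. In the knockout the top genes were Cdk4 (37.0), Ccnd2 (34.0) and Ccnd3 (29.1), with Ccna2 (24.8) and Ccne1 (14.8) next. Cdk2 (6.997), Ccne2 (6.92) and Cdk1 (6.14) had overlapping ranges, and Ccnd1 (2.0997) and Cdk6 (1.45) remained the lowest. By the longest transcript Ccnd3 had the highest mean in both groups (99.2 in the controls and 121 in the knockout). In the controls its range overlapped that of Ccnd2 (65.9). By the mean transcript length Cdk6 (2.25 and 6.57) was above Ccnd1 (1.07 and 2.64).

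Among the D cyclins of mouse T cells, Ccnd2 held 51.3% to 76.2% of the level per kilobase in the controls and 50.5% to 53.9% in the knockout, and Ccnd3 held 23.3% to 46.6% and 41.9% to 47.1%. Both ranges overlapped between the groups. The order of Ccnd2 and Ccnd3 depends on the length used. By the longest protein-coding transcript Ccnd3 held a mean of 60.2% in the controls (45.9% to 71%) and 69.3% in the knockout. By that length Ccnd2 was ahead in control replicate 3, at 53.8%. Cdk6 held 0.637% to 2.76% of the Cdk4 and Cdk6 level in the controls and 3.61% to 3.96% in the knockout, and Ccne1 held 77.8% to 84% of the E-cyclin level in the controls and 67.4% to 68.9% in the knockout. The last 2 shares did not overlap between groups, and 2 libraries against 3 cannot reach an exact two-sided p under 0.2.

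Of the 20 other mouse cyclins 17 were tested, 1 rose and 0 fell (1 lower at an unadjusted p under 0.05 in edgeR, 0 by DESeq2), with a median log2 fold change of -0.0298. Ccnf, cyclin F, a subunit of a ubiquitin ligase active in G2, rose from 7.14 ± 3.10 CPM (SD, n = 3) to 27.4 ± 1.45 CPM (SD, n = 2), a log2 fold change of 1.93 (edgeR adjusted p = 0.0386). That call was lost without control replicate 1, knockout replicate 1 or knockout replicate 2, with edgeR adjusted p-values of 0.171, 0.185 and 0.244. The mitotic cyclins Ccnb1 (1.94, edgeR adjusted p = 0.0686) and Ccnb2 (1.90, edgeR adjusted p = 0.126) did not pass. Of 13 other CDKs tested, 0 passed, also at an unadjusted p under 0.05 and by DESeq2, and their median was -0.094. Of 23 CDK regulators tested, 21 had a positive log2 fold change with a median of 0.738. None passed in edgeR, 10 being higher at an unadjusted p under 0.05, and DESeq2 called 6 higher and 0 lower.

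The comparisons of J.gamma1 and mouse T cells came from separately normalized tables of different species, so their values are set side by side and their difference was not tested. CDK1 was at -1.02 in J.gamma1 cells and Cdk1 at 1.74 in mouse T cells. CCNE2 was at -1.03 and Ccne2 at 2.44, CCNE1 at -0.22 and Ccne1 at 1.55, and CCNA2 at -0.19 and Ccna2 at 2.25. CDK6 was at 0.96 and Cdk6 at 1.57, with no overlap between groups in either table. CDK2 was at -0.39 and Cdk2 at -0.13, and CCND2 at -0.18 and Ccnd2 at -0.38. CDK4 and CCND3 had -0.29 and -0.34 in J.gamma1 cells, and Cdk4 and Ccnd3 0.06 and 0.29 in mouse T cells.

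**Figure D4:**
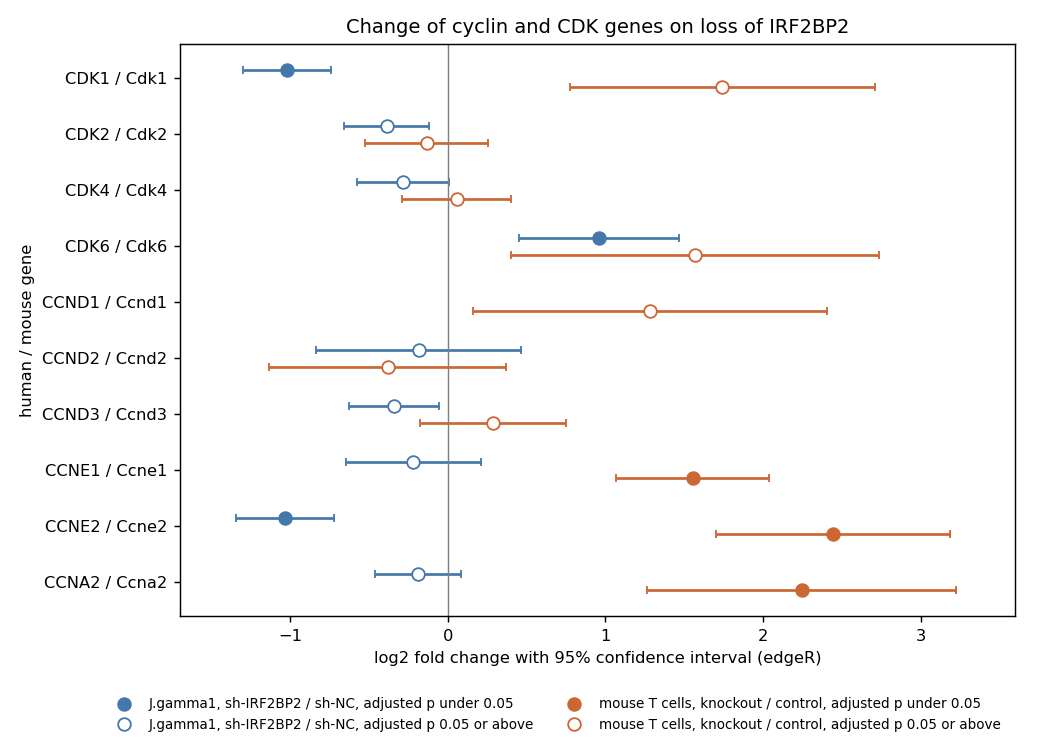
Log2 fold change of each gene on loss of IRF2BP2 with its 95% confidence interval from edgeR, for J.gamma1 cells and mouse T cells, filled where the adjusted p was under 0.05. CDK1 and CCNE2 lie near -1 and CDK6 near 1 in J.gamma1 cells, while Ccne1, Ccne2 and Ccna2 lie between 1.55 and 2.44 in mouse T cells.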

How the data were processed

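The authors sequenced paired-end reads (NovaSeq), aligned them with HISAT2 2.2.0 (hg38 and mm10 per the labels) and quantified them with StringTie. The values the authors deposited are whole-number counts for each Ensembl gene in each library, neither normalized nor pooled. How coverage became counts, and whether strand was used, are not given in the sources used here. The study used DESeq2, and its design formula is not given in the sources used here.

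Rows with an annotated identifier (GENCODE 44, 56105 of 64252 rows; GENCODE M21, 42462 of 43432) held 97.89% to 98.09% and 99.81% to 99.83% of the counts. Total counts were 16668577 to 37177523 per library, and 3 counts were 0.0783 to 0.188 CPM. Replicates of a group differed beyond sampling noise, with chi-square values per gene from 20.05 upward, and each was used as 1 replicate. The J.gamma1 and mouse tables were fitted separately in R 4.3.3 with edgeR 4.0.16 (filterByExpr, TMM, glmQLFit, glmQLFTest, condition as the sole term), with Benjamini-Hochberg adjustment over all genes tested. A call was an adjusted p under 0.05. The biological coefficient of variation was 0.165 in J.gamma1 cells and 0.271 in mouse T cells, with 2 and 3 residual degrees of freedom. The standard error is the log2 fold change over the root of the F statistic. CPM used TMM-scaled library sizes, except for the genes that overlap a member. Their mean CPM used unscaled total counts and covers all J.gamma1 or all mouse libraries, both groups together. Levels per kilobase used the union of annotated exons. Promoters were searched in Python 3.11.15.

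Groups came from the labels, and the genotypes in full from the study's methods. The 10 members and all lists were chosen with earlier results of these data known. Named genes are the 10 members; of the other cyclins, other CDKs and CDK regulators, those called with at least 5 CPM in a group, at most 5 per direction; IRF2BP2, MKI67 and TOP2A; and the 3 markers of a lineage with the highest mean CPM (printed for the erythroid list). CCNB1, CCNB2, EOMES, HEMGN, CD79A, MZB1, PRDM1, Cd8b1, Cd8a, Cd4, the markers at 0 and the overlapping neighbors were named after their values were seen. No list was tested as a set. Scripts were tested on simulated data. The alternatives tried were upper-quartile or RLE scaling, DESeq2 1.42.0, other filters on low counts, all rows, counts divided by 2, thresholds on the fold change, a replicate block, scaling without marker genes (mouse), other gene lengths and each library left out. The ChIP-seq and CUT&Tag data were not analysed here, and some items are not reported here.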

Additional observations from a re-analysis of the deposited data

Results flagged for a closer look

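In 4 gene pairs, every knockdown library of J.gamma1 cells lay on one side of its controls and every knockout library of mouse T cells on the opposite side. The log2 fold changes were -1.02 for CDK1 and 1.74 for Cdk1, -0.22 for CCNE1 and 1.55 for Ccne1, -1.03 for CCNE2 and 2.44 for Ccne2, and -0.19 for CCNA2 and 2.25 for Ccna2. Of these 8 values, those of CDK1, CCNE2, Ccne1, Ccne2 and Ccna2 passed edgeR's test within their own comparison. Groups without overlap were common: over all genes tested 28.7% were lower and 29.6% higher in J.gamma1 cells. In mouse T cells 18.2% were higher and 17.8% lower. The share of all gene pairs that split in opposite directions was not computed. The difference between the comparisons was not tested, since the tables come from different species and were normalized separately. Knockdown left part of IRF2BP2 (79.0 and 93.8 CPM), whereas the knockout libraries had 0 and 0 counts. The mouse groups also differed in erythroid markers, which summed to 620.7 to 2304 CPM in the controls and 4892 to 6803 CPM in the knockout. Of the 18 mouse T cell markers 17 had a negative log2 fold change. The part of any of these in the opposite signs was not tested.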

How the results depend on the processing

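Over 286 values of the members under an alternative, 259 kept their direction and their side of the threshold, 12 lost the call, 11 gained one and 4 turned sign. These include the thresholds on the fold change, which reuse the main fit. Under them no sign can turn and a call can only be lost, so they add to the 259 without testing stability. The falls of CDK1 and CCNE2 were called under every alternative run. With the replicate block, Cdk4 (-0.030) and Ccnd2 (0.016) turned sign. With 1 library left out, Cdk4 ranged from -0.039 to 0.17, Ccnd2 from -0.55 to 0.0096 (both turned without control replicate 3) and MKI67 from -0.0063 to 0.48.

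Among J.gamma1 members, 0 rose when every gene with at least 1 count in any library was kept and 0 at a log2 fold threshold of 1. The first of these gave 319 higher and 396 lower over all genes and 1 and 1 of the companion genes (3 and 3 in the main comparison), and the threshold gave 262 and 318, and 1 and 0. DESeq2 called 6 companion genes higher. In mouse T cells DESeq2 called 5 members, 937 genes higher and 286 lower, and 9 companion genes higher. Counts divided by 2 gave 37 lower, and keeping every gene with a count gave 2 companion genes higher.

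The labels do not say that a replicate number marks a shared batch, and 2 pairs cannot settle a pairing: deviations of same-numbered libraries correlated at 0.225 in J.gamma1 cells and at 0.151 and -0.161 in mouse T cells. As a replicate block the numbers gave 1884 higher and 1663 lower in J.gamma1 cells, with 9 and 7 companion genes, and CDK2 was also called (adjusted p = 0.0253 from edgeR). In mouse T cells the replicate block called 5 members higher, Cdk1 (edgeR adjusted p = 0.0388) and Cdk6 (0.0121) beside the main 3, with 3 companion genes higher and 53 genes lower.

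With 1 library left out, which at times leaves 1 library in a group, assumed to vary like the other group, 0 to 1 J.gamma1 members rose and 2 to 4 fell, over all genes 418 to 1863 rose and 419 to 1384 fell, and of the companion genes 1 to 7 rose and 1 to 9 fell. The highest counts came without sh-NC replicate 1 and the lowest without sh-IRF2BP2 replicate 1. In mouse T cells 0 to 4 members rose, 6 to 594 genes rose and 1 to 65 fell, and 0 to 6 companion genes rose; the 0 came without control replicate 1 or either knockout library, so the mouse calls rest on having all of these. Depth limited CCND1 in J.gamma1 cells, and with all counts divided by 2 the called members were CDK1, CDK6 and CCNE2, and Ccne1, Ccne2 and Ccna2.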
